A study of Saccharomyces cerevisiae with 6 samples.

Results

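The UTP, NOP and RRP genes of budding yeast encode proteins of ribosome biogenesis, and 53 of them were measured here, out of 7064 genes in the deposited transcript models. They were taken by name: every protein-coding gene whose standard symbol in the R64 annotation is UTP, NOP or RRP followed directly by a digit. This gave 18 UTP, 17 NOP and 18 RRP genes, and all 53 passed the filter on low counts, among 6171 tested loci. The rule uses no measured value, but the genes were chosen with earlier results of these data known.

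A ribosome is assembled in the nucleolus around a long precursor ribosomal RNA, which RNA polymerase I transcribes. The small subunit processome, a very large particle built from UTP subcomplexes and the U3 snoRNP, forms on this precursor. Other factors guide its modification, cleavage and folding into both subunits, and the RNA exosome trims and degrades RNA ends. In yeast the genes of these factors are known to be transcribed together, to be repressed in many stresses, and to carry the PAC and RRPE elements upstream of their start codons.

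RNA was sequenced from 3 groups of S. cerevisiae W303, a laboratory strain, with 2 libraries each. In the first group PDR3, a transcription factor gene, was deleted and PSD1, which encodes the mitochondrial phosphatidylserine decarboxylase, was overexpressed (called pdr3Δ below). The second overexpressed PSD1 with PDR3 present, and the third was wild type (WT). PSD1 was driven by the GAL promoter from a 2µ plasmid in both overexpressing groups. All cultures grew in 1% yeast extract, 2% peptone and 2% raffinose. The labels give induction with 2% galactose for 4 h as plus or minus, without saying which of the samples received it. The labels do not say whether the 2 libraries of a group stem from separate cultures. The p-values therefore describe the spread between these particular libraries, which may be technical.

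Library totals ran from 10220872 to 12315448 counts. Values below are CPM, that is, counts scaled to a common library size with TMM factors, unless a sentence names another unit. PDR3 had 3 and 9 counts in pdr3Δ, 2283 and 2245 in PSD1 overexpression, and 724 and 798 in WT. PSD1 stood at 9369.9 and 9070.9 CPM in pdr3Δ, 14465.8 and 16489 in PSD1 overexpression, and 1494.8 and 1318.8 in WT. The overexpressing groups therefore differed from each other in PSD1 as well as in PDR3, with a log2 fold change for PSD1 of −0.75 ± 0.09 (SE) in pdr3Δ against PSD1 overexpression. GAL1, the galactokinase gene, had 101214 and 92225 counts in pdr3Δ, 72738 and 61306 in PSD1 overexpression, and 484 and 230 in WT. Each comparison with WT is thus also a comparison of cells with high and low galactose gene expression, and these cannot be told apart. URA3, an auxotrophic marker gene, had 4401.2 and 5842.8 CPM in pdr3Δ, 12139.1 and 12784.1 in PSD1 overexpression, and 16646.7 and 17278.6 in WT, and its part in the results was not tested. In bulk RNA, fewer cells expressing a gene and less RNA per cell cannot be told apart either.

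The sequences upstream of the start codons are shown first, because most of the 53 genes share letters in them, which the naming rule did not use. Windows of 300 bases (250 before and 50 after the first base of the start codon) were read from the RefSeq R64 genome, which is of strain S288C, and searched on both strands. PAC was searched as GATGAG and as GCGATGAG, which holds the shorter spelling. RRPE was searched as AAAATTTT and in a longer spelling that overlaps it only in part. GATGAG was present for 44 of the 53 genes (83.0%), against 20.4% of the windows of all 6001 protein-coding genes. AAAATTTT was present for 31 of 53 (58.5%), against 9.03% of all windows. Both stood in 27 windows (50.9%), against 4.38% of all. GCGATGAG was present for 45.3% of the genes, against 3.93% of all windows. The longer RRPE spelling was present for 23 (43.4%), against 3.92% of all windows, and for 6 of these (UTP8, NOP13, NOP4, RRP17, RRP3 and UTP30) AAAATTTT was not in the window. Unless a sentence says otherwise, RRPE below means AAAATTTT.

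The following stretches come from the 6 genes that held both elements and had the largest changes in PSD1 overexpression against WT, plus 1 gene that held neither. Each is written 5′ to 3′ on the gene's own strand, with capitals marking GATGAG, its reverse complement CTCATC, or AAAATTTT. NOP1 encodes fibrillarin, NOP58 and NOP56 encode the scaffold of box C/D snoRNPs, RRP12 encodes a HEAT-repeat factor of pre-ribosome export, UTP21 a subunit of UtpB, and NOP7 the yeast homolog of pescadillo. RRP46, an exosome ring subunit, is shown for contrast and was picked after its values were seen, as the gene with the highest log2 fold change in that comparison.
NOP1, chrIV:427129-427175, plus strand: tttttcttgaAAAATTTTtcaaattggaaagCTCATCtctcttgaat
NOP58, chrXV:898458-898505, minus strand: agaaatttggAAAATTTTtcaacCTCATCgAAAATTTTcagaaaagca
NOP56, chrXII:545915-546004, plus strand: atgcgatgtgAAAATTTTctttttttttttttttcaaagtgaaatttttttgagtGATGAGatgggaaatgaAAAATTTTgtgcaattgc
RRP12, chrXVI:529498-529574, plus strand: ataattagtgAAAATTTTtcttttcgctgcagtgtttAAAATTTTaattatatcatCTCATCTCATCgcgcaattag
UTP21, chrXII:937329-937376, minus strand: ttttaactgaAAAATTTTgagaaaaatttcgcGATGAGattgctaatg
NOP7, chrVII:695266-695330, plus strand: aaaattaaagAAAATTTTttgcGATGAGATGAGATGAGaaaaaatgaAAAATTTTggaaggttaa
RRP46, chrVII:676413-676512, minus strand: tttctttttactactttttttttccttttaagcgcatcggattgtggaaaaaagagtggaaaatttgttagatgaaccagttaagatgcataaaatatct

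In the 6 stretches with matches, which were cut close around those matches, the elements lay within a short distance of each other. This did not hold for every gene with both elements. In RRP15 the PAC began at −222 and the RRPE at −119 from the start codon. In UTP4, also counted as holding both, the only PAC match began at base 6 of the coding sequence. The RRP46 stretch, with no match to cut around, runs from 170 to 71 bases before the start codon. In NOP58 and NOP56 an RRPE stood on each side of the PAC, and in NOP7 overlapping copies of GATGAG lay between a pair of RRPE copies. The NOP1 stretch ended 189 bases before the start codon, and that of UTP21 ended 96 bases before it. Among the genes that held each element, 35 of 44 had a PAC match between 80 and 170 bases before the start codon (79.5%, against 38.9% of all holders in the genome). For RRPE this was 26 of 31 (83.9%, against 60.5%).

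**Figure D1:**
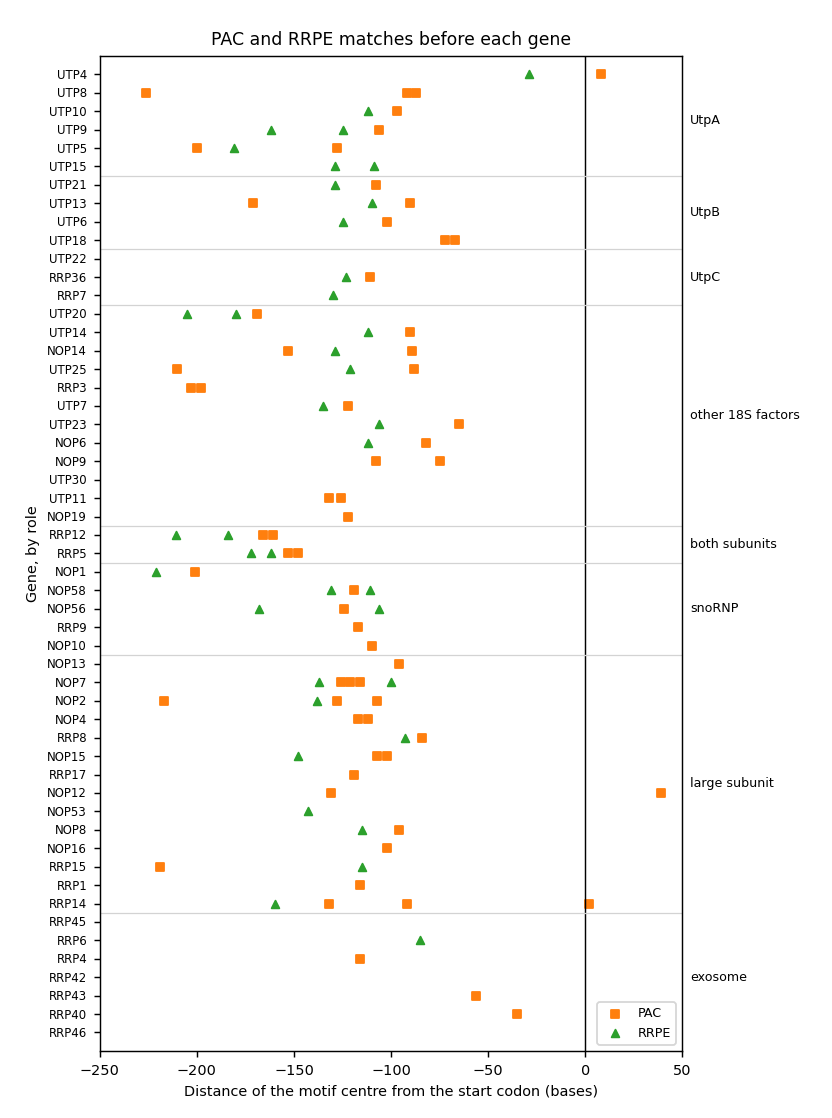
Position of each PAC (GATGAG) and RRPE (AAAATTTT) match in bases from the first base of the start codon, 1 row per gene, with genes grouped by role. Most matches lie between 80 and 170 bases before the start codon, and the exosome subunits hold few of them; the longer RRPE spelling is not drawn.

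The elements were unevenly spread over the roles of the genes. All 5 snoRNP genes, all 4 UtpB genes and 13 of 14 large subunit assembly factors held GATGAG. Of the 7 exosome subunits, 3 held GATGAG, 1 held AAAATTTT and none held both. UTP22, RRP42, RRP45, RRP46 and UTP30 held neither GATGAG nor AAAATTTT, and of these UTP30 held the longer RRPE spelling. By comparison, 91.5% of 82 other assembly factors held GATGAG and 81.7% held AAAATTTT, against 10.9% and 6.57% of the 137 cytosolic ribosomal protein genes. A match is a description of letters in the window, and whether a factor binds there was not tested.

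PSD1 overexpression was first set against WT. Of the 53 genes, 41 were lower in PSD1 overexpression at an adjusted p under 0.05 (edgeR quasi-likelihood test, Benjamini-Hochberg over all tested loci), none was higher and 12 were not called. Among all 6171 tested loci, 27.9% were called lower and 27.9% higher. The median log2 fold change of the 53 was −0.30, against 0.01 for all tested loci, which corresponds to a median fall of 18.8%. Their values ran from −0.57 to 0.14. The libraries of PSD1 overexpression all lay below those of WT for 46 genes, against 38.4% of all loci, and all above for 2, against 39.5%. By name, 16 of 18 UTP, 16 of 17 NOP and 9 of 18 RRP genes were lower, and the 7 exosome subunits are all RRP genes. Together the 53 genes took 0.955% and 1.02% of counts in pdr3Δ, 0.844% and 0.832% in PSD1 overexpression, and 1.05% and 1.09% in WT.

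**Figure D2:**
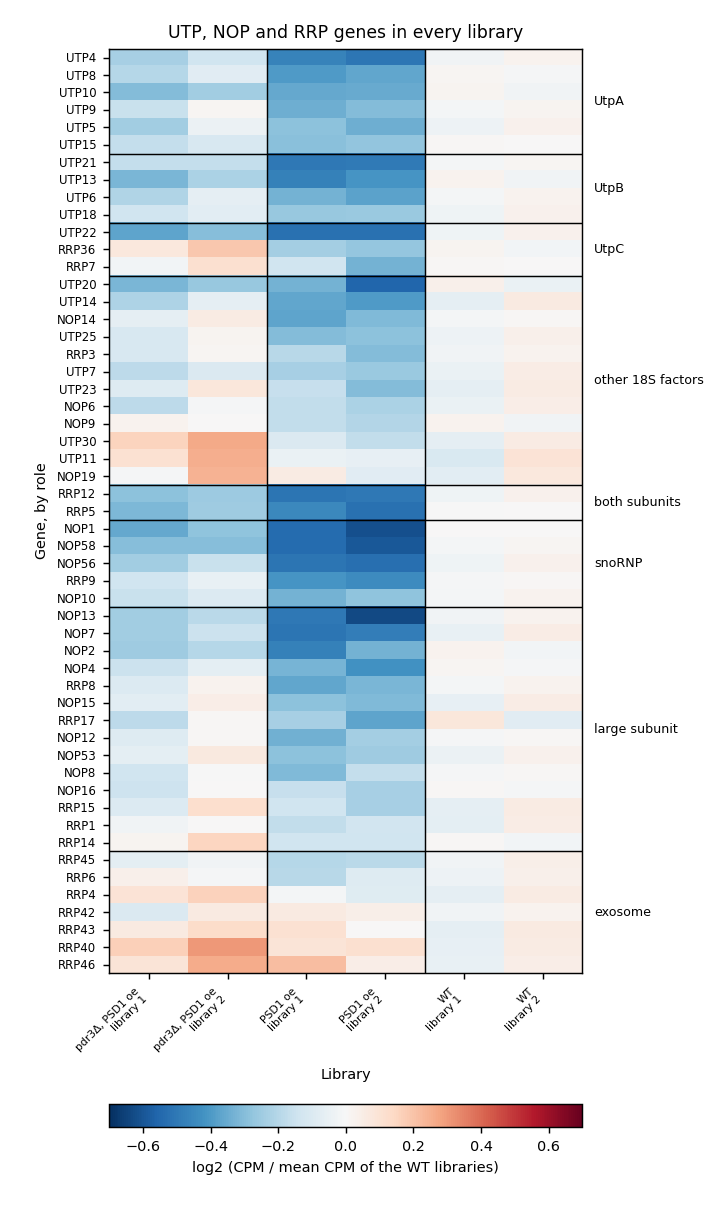
Heat map of log2(CPM divided by the mean WT CPM) for the 53 genes (rows, by role) in the 6 libraries (columns: pdr3Δ, PSD1 overexpression, WT). The 2 PSD1 overexpression columns are the lowest for most rows, but not for most of the exosome rows.

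The snoRNP proteins had the lowest median of the role groups, −0.52, and 5 of 5 were lower in PSD1 overexpression. NOP1, the methyltransferase of box C/D snoRNPs, had 635 and 669 CPM in pdr3Δ, 561 and 532 in PSD1 overexpression, and 814 and 814 in WT. NOP58 had 616 and 615 CPM in pdr3Δ, 520 and 502 in PSD1 overexpression, and 749 and 763 in WT. For both, the 3 groups did not overlap, with PSD1 overexpression lowest and WT highest. The log2 fold change against WT was −0.57 ± 0.05 for NOP1 (adjusted p = 6.48e-06) and −0.57 ± 0.05 for NOP58 (adjusted p = 3.61e-06). NOP58 shares its locus with YOR309C over 254 of its 1536 bases on the same strand, so its counts include reads of both.

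NOP56, the partner of NOP58 in the snoRNP scaffold, had a log2 fold change of −0.52 ± 0.05, and RRP9, a U3 snoRNP protein, of −0.42 ± 0.05. NOP10, a small subunit of the H/ACA snoRNPs that guide pseudouridylation, had the smallest change of the group. It stood at 97.9 and 102 CPM in pdr3Δ, 86.7 and 89.6 in PSD1 overexpression, and 108 and 111 in WT. Its 3 groups did not overlap, and its log2 fold change in PSD1 overexpression against WT was −0.31 ± 0.05 (adjusted p = 0.000713).

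The factors that act on both subunits, RRP5 and RRP12, were both lower in PSD1 overexpression. RRP5, an RNA-binding protein needed for early cleavages towards either subunit, had 263 and 275 CPM in pdr3Δ, 239 and 228 in PSD1 overexpression, and 326 and 327 in WT. RRP12 had 330 and 337 CPM in pdr3Δ, 282 and 284 in PSD1 overexpression, and 393 and 411 in WT. Both genes were lowest in PSD1 overexpression and highest in WT, without overlap. The log2 fold changes in PSD1 overexpression against WT were −0.48 ± 0.05 for RRP5 (adjusted p = 1.79e-05) and −0.51 ± 0.05 for RRP12 (adjusted p = 8.84e-06).

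UtpA binds the nascent precursor RNA first, and its 6 genes were all lower, with a median of −0.34. UTP4 changed most, with 227 and 242 CPM in pdr3Δ, 193 and 188 in PSD1 overexpression, and 262 and 272 in WT. UTP15 changed least, with 132 and 137 CPM in pdr3Δ, 121 and 122 in PSD1 overexpression, and 149 and 148 in WT. UTP5, the UtpA gene with the highest FPKM, had 260 and 299 CPM in pdr3Δ, 252 and 243 in PSD1 overexpression, and 301 and 314 in WT. PSD1 overexpression was lowest without overlap for all 3 genes, while the second pdr3Δ library of UTP5 came close to WT. Their log2 fold changes against WT were −0.49 ± 0.05 for UTP4, −0.29 ± 0.05 for UTP15 and −0.31 ± 0.07 for UTP5. UTP8, UTP9 and UTP10 lay between −0.38 and −0.33.

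UtpB, which joins after UtpA and contacts the U3 snoRNA and the 5′ end of the precursor, had 4 of 4 genes lower, with a median of −0.41. UTP21 had 197 and 197 CPM in pdr3Δ, 156 and 157 in PSD1 overexpression, and 219 and 223 in WT. Replicates of UTP21 differed by far less than the groups did, and its log2 fold change against WT was −0.50 ± 0.04 (adjusted p = 8.19e-06). UTP18, the UtpB gene that changed least and had the highest FPKM of the 4, stood at 166 and 174 CPM in pdr3Δ, 152 and 153 in PSD1 overexpression, and 179 and 187 in WT. Its log2 fold change was −0.26 ± 0.05 (adjusted p = 0.00137). UTP13 stood at −0.45 and UTP6 at −0.36.

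UTP22 and RRP7 belong to UtpC, which also holds casein kinase 2, and RRP36 is needed with them for early cleavages towards 18S rRNA. All 3 were lower in PSD1 overexpression. UTP22 had 202 and 212 CPM in pdr3Δ, 182 and 182 in PSD1 overexpression, and 256 and 267 in WT. RRP7 had 150 and 164 CPM in pdr3Δ, 138 and 121 in PSD1 overexpression, and 153 and 152 in WT. UTP22 separated the 3 groups, whereas for RRP7 the pdr3Δ libraries lay on either side of WT. The log2 fold changes against WT were −0.53 ± 0.05 for UTP22 (adjusted p = 9.88e-06), −0.23 ± 0.07 for RRP7 (adjusted p = 0.0156) and −0.25 ± 0.06 for RRP36 (adjusted p = 0.00751). UTP22 is among the genes with no PAC or RRPE match in any spelling searched, so a fall of this size was not limited to genes with a match.

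Of the other 12 factors of the small subunit processome and of 18S rRNA, 9 were lower, with a median of −0.24. UTP20, a very large HEAT-repeat protein, changed most and had 125 and 130 CPM in pdr3Δ, 124 and 106 in PSD1 overexpression, and 160 and 151 in WT. NOP6, an RNA-binding protein, had 135 and 152 CPM in pdr3Δ, 136 and 131 in PSD1 overexpression, and 148 and 158 in WT. The pdr3Δ libraries of NOP6 overlapped both other groups. The log2 fold changes in PSD1 overexpression against WT were −0.43 ± 0.07 for UTP20 (adjusted p = 0.000616) and −0.19 ± 0.07 for NOP6 (adjusted p = 0.0279). UTP14, which activates a processome helicase, stood at −0.38, NOP14 at −0.34 and UTP25 at −0.30, all called lower. UTP7, RRP3 (a DEAD-box helicase), UTP23 and NOP9 were lower by smaller amounts, between −0.25 and −0.19.

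The 3 that were not called in this group were UTP30 (−0.13, adjusted p = 0.152), UTP11 (−0.05, adjusted p = 0.586) and NOP19 (−0.01, adjusted p = 0.945). NOP19, a processome component, had 30.7 and 36.6 CPM in pdr3Δ, 32.1 and 29.3 in PSD1 overexpression, and 29.4 and 32.5 in WT. All 3 groups of NOP19 overlapped.

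Large subunit assembly factors were lower for 10 of 14, with a median of −0.29. NOP13, a nucleolar RNA-binding protein, changed most, with 103 and 107 CPM in pdr3Δ, 86.3 and 78.8 in PSD1 overexpression, and 120 and 124 in WT. NOP15, an RNA-binding protein of early pre-60S particles and the most abundant of the group by FPKM, had 173 and 188 CPM in pdr3Δ, 149 and 147 in PSD1 overexpression, and 175 and 189 in WT. NOP13 separated the 3 groups, while NOP15 overlapped between pdr3Δ and WT and was lower in PSD1 overexpression than in either. The log2 fold changes against WT were −0.57 ± 0.06 for NOP13 (adjusted p = 2.3e-05) and −0.30 ± 0.06 for NOP15 (adjusted p = 0.00152). NOP4, NOP12, NOP53, NOP8 and NOP16 lay between −0.38 and −0.20. NOP7 stood at −0.50, and the 25S rRNA methyltransferase genes NOP2 and RRP8 at −0.40 and −0.35, each called lower.

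RRP14, RRP1, RRP15 and RRP17 did not pass. RRP14 had 167 and 183 CPM in pdr3Δ, 150 and 150 in PSD1 overexpression, and 166 and 163 in WT. PSD1 overexpression was the lowest group for RRP14 as well, without overlap, but the log2 fold change of −0.13 had an adjusted p of 0.0629. RRP1 (−0.15), RRP15 (−0.18) and RRP17 (−0.30 ± 0.12), the last a 5′ exonuclease gene, had adjusted p-values of 0.0514, 0.0661 and 0.0613. An open reading frame on the opposite strand covers 565 of the 708 bases of RRP17. Whether the authors counted by strand is unknown here.

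The 7 exosome subunits had the highest median of the role groups. Their values (−0.20 to 0.14) overlapped those of the other 46 genes (−0.57 to −0.01). Only RRP45, a ring subunit, and RRP6, the nuclear 3′ exonuclease, were called lower, and the median of the 7 was 0.05. Without them, 39 of 46 genes were lower, with a median of −0.31. RRP45 had 104 and 107 CPM in pdr3Δ, 95 and 95.5 in PSD1 overexpression, and 107 and 112 in WT. RRP46 had 83.3 and 93.7 CPM in pdr3Δ, 90.9 and 80.8 in PSD1 overexpression, and 75.5 and 80.9 in WT. RRP40, a cap subunit with an RNA-binding fold, had 91.8 and 101 CPM in pdr3Δ, 87 and 88.3 in PSD1 overexpression, and 78.6 and 84.9 in WT.

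PSD1 overexpression lay below WT for RRP45 and above it for RRP40, without overlap in either, while for RRP46 the groups overlapped. The log2 fold changes were −0.20 for RRP45 (adjusted p = 0.00789), −0.14 for RRP6 (adjusted p = 0.044), 0.10 for RRP40 (adjusted p = 0.216) and 0.14 ± 0.08 for RRP46 (adjusted p = 0.17). RRP4 (−0.04), RRP42 (0.05) and RRP43 (0.06) were not called, with adjusted p-values between 0.476 and 0.566. The difference between the exosome subunits and the other genes was not tested.

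With every library, DESeq2 did not call 4 of the 41: RRP6 (adjusted p = 0.125), NOP6 (0.0518), NOP9 (0.0504) and UTP23 (0.0518). Fits of limma on log2 FPKM did not call RRP6, NOP6 or UTP23 (adjusted p 0.051 to 0.0588). With edgeR on library totals alone, RRP6 was not called (adjusted p = 0.0582). Leaving out 1 library at a time ended some of the 41 calls, as listed here. Fewer of all tested loci were called in each of these fits, also without the first WT library, where none of the 41 calls ended. The median log2 fold change of the 53 genes stayed between −0.31 and −0.28 in them. Without the second PSD1 overexpression library the adjusted p was 0.052 for RRP36, 0.155 for RRP7, 0.117 for NOP16, 0.166 for NOP6, 0.0659 for NOP9, 0.0712 for RRP3 and 0.216 for UTP23. Without the first it was 0.0504 for RRP45, 0.283 for RRP6, 0.135 for NOP8 and 0.0735 for NOP6. Without the second WT library it was 0.178 for RRP6, 0.124 for NOP6 and 0.138 for UTP23.

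Set beside the sequences, 25 of the 27 genes with both elements were lower (median −0.35), 14 of the 21 with 1 of them (median −0.25), and 2 of the 5 with neither (median −0.13). Of the 12 genes not called, 9 held GATGAG and 2 held AAAATTTT, while of the 41 called lower 35 held GATGAG and 29 held AAAATTTT. The split depends on the spelling. With RRPE counted in either spelling, 29 of 32 genes with both elements were lower (median −0.35), 10 of 17 with 1 of them (median −0.19) and 2 of 4 with neither (median −0.08), and 4 of the 12 genes not called held an RRPE. These counts were not tested, and the exosome subunits RRP42, RRP45 and RRP46 are among the genes with neither element in both splits. RRP4, RRP40, RRP43 and RRP6 are among those with 1 element in both splits, and no exosome subunit held both elements. The splits by element thus overlap with the split between exosome subunits and other genes, and these were not tested apart.

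**Figure D3:**
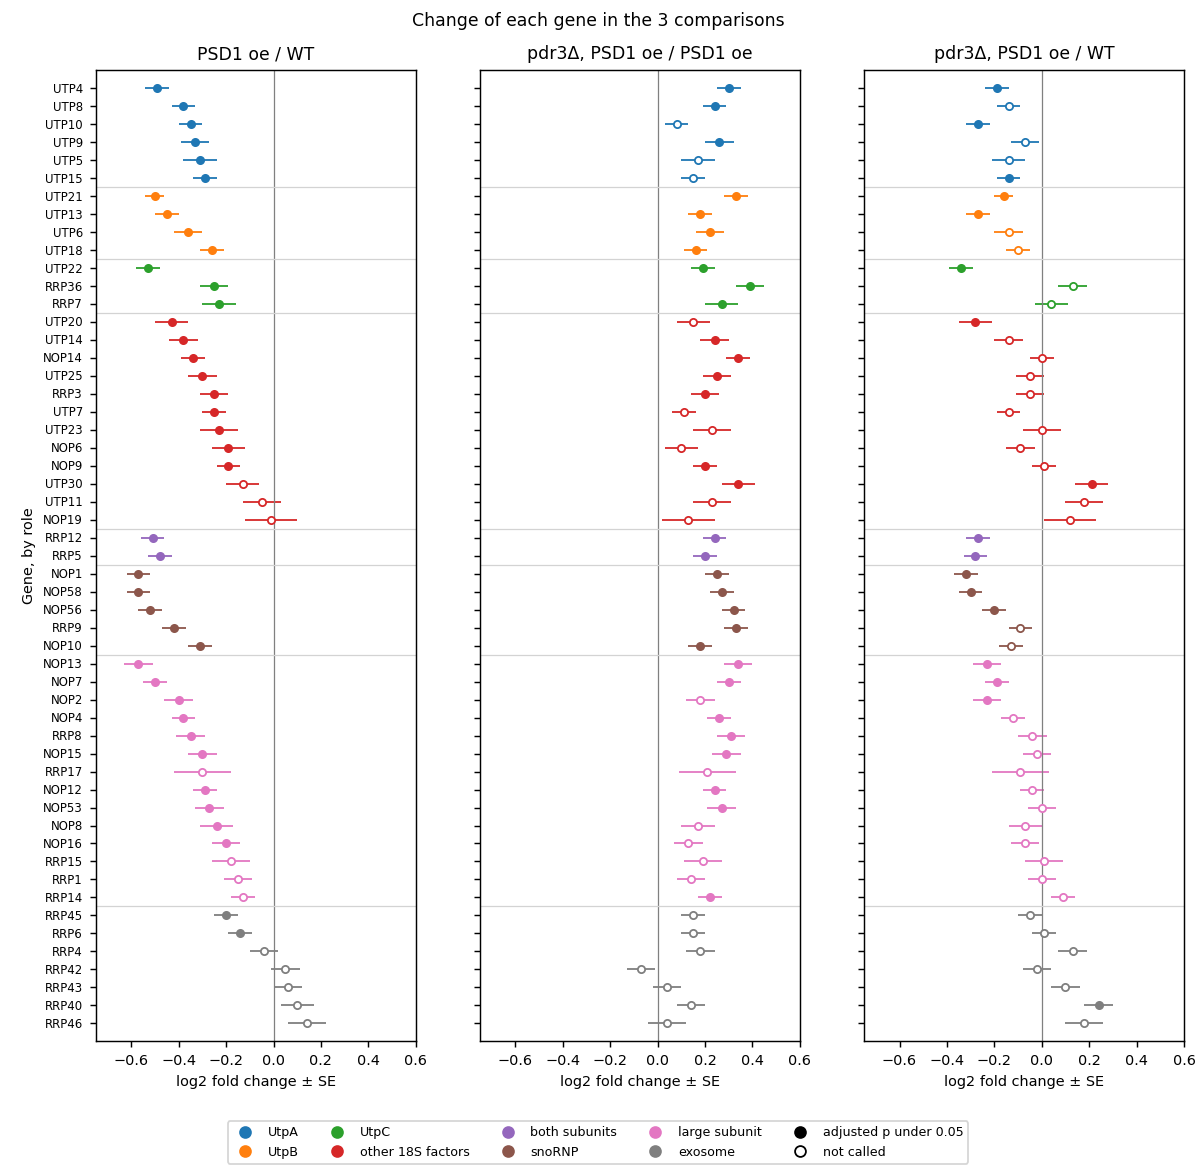
Log2 fold change ± SE of each of the 53 genes in the 3 comparisons, in rows by role, with filled points for an adjusted p under 0.05. Most points lie left of 0 in PSD1 overexpression against WT, right of 0 in pdr3Δ against PSD1 overexpression, and on both sides of 0 in pdr3Δ against WT.

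The deletion of PDR3 was then set against PSD1 overexpression alone. In pdr3Δ, 31 of the 53 genes were higher than in PSD1 overexpression, none was lower and 22 were not called. Of all tested loci, 11.8% were called higher and 9.12% lower. The median log2 fold change was 0.21, a median rise of 15.7%, and the values ran from −0.07 to 0.39. The pdr3Δ libraries lay above both PSD1 overexpression libraries for 48 genes, against 32.2% of all loci, and below both for none, against 31.3%. This comparison uses the same PSD1 overexpression libraries as the one with WT, so a value that is low in them lowers the contrast with WT and raises this one, and the fold changes of these comparisons are not independent.

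All 5 snoRNP, 4 UtpB, 3 UtpC-group and 2 both-subunit genes were higher in pdr3Δ, as were 3 of 6 UtpA, 6 of 12 other small subunit and 8 of 14 large subunit genes. None of the 7 exosome subunits was called, with log2 fold changes from −0.07 to 0.18 and adjusted p-values of at least 0.0592. Still, 6 of these 7 lay above 0, and their median was 0.14, against 0.23 for the other 46 genes. With edgeR on library totals alone, RRP4 and RRP45 were called higher (adjusted p = 0.0476 and 0.0487). RRP36 had the largest change, with 58.3 and 63 CPM in pdr3Δ, 46.9 and 45.9 in PSD1 overexpression, and 56 and 54.5 in WT. UTP30, an L1-domain protein of the processome, had 53.8 and 58.1 CPM in pdr3Δ, 45.1 and 42.9 in PSD1 overexpression, and 46.3 and 50.3 in WT. For both genes the pdr3Δ libraries were the highest of the 6. The log2 fold changes in pdr3Δ against PSD1 overexpression were 0.39 ± 0.06 for RRP36 (adjusted p = 0.00344), 0.34 ± 0.06 for NOP13 (adjusted p = 0.00458) and 0.34 ± 0.07 for UTP30 (adjusted p = 0.0102).

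UTP21 (0.33), NOP56 (0.32), RRP9 (0.33), RRP8 (0.31) and NOP14 (0.34) were close to these in size. RRP14, which was not called against WT, was 0.22 higher in pdr3Δ (adjusted p = 0.0202). UTP10, UTP15 and UTP5 of UtpA did not pass, at 0.08, 0.15 and 0.17, nor did NOP2 at 0.18 (adjusted p = 0.0506). NOP1 (0.25 ± 0.05), NOP58 (0.27 ± 0.05) and RRP12 (0.24 ± 0.05) were called higher, and each was also called lower in pdr3Δ than in WT, as given below.

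The number of genes called in this comparison turned on single libraries. It was 3 without the second PSD1 overexpression library (UTP21, NOP14 and RRP9, adjusted p 0.0321 to 0.0452), and 12 without the first. Without the second pdr3Δ library it was 11, and without the first pdr3Δ library 32, of which 28 were also called with every library in the fit. Fewer of all tested loci were called in each of these fits, so a loss of calls was not limited to the 53 genes. This includes the fit without the first pdr3Δ library, where the number called among the 53 did not fall. The median log2 fold change over the 53 genes stayed between 0.15 and 0.27 in these fits. Between the pdr3Δ libraries themselves, the second was higher than the first for 50 of the 53 genes, by a median log2 of 0.10, against 50.2% and 0.0 for all tested loci. In PSD1 overexpression the second library was higher for 22 of the 53, and in WT for 39. The part of this shift in the result was tested only by the fits without each library.

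**Figure D4:**
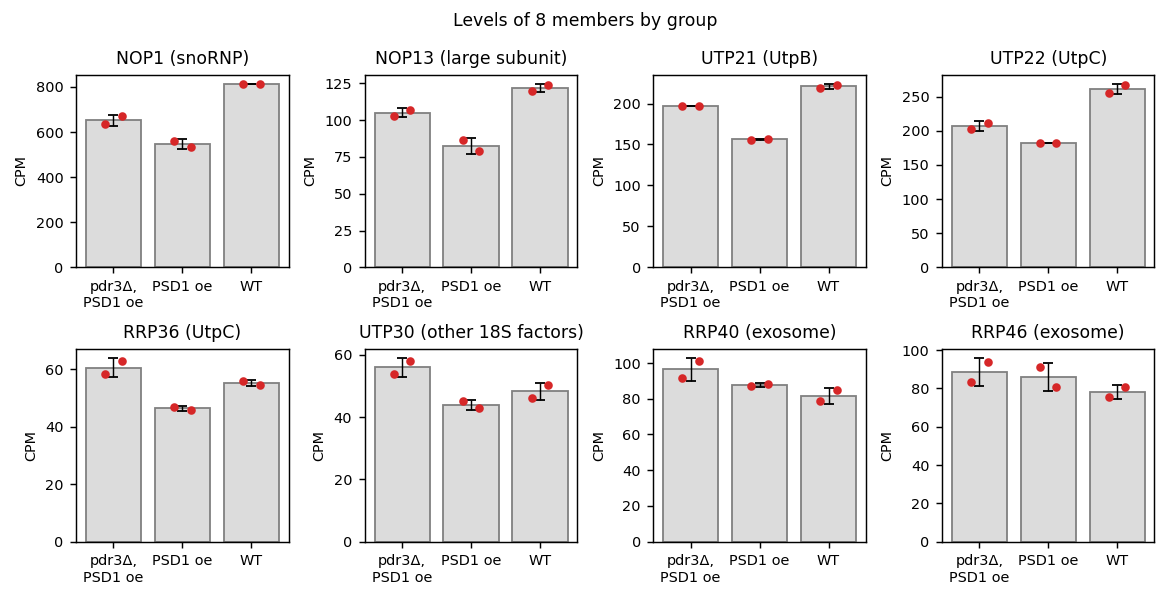
CPM of 8 genes in pdr3Δ, PSD1 overexpression and WT (bars, mean; error bars, SD; points, the 2 libraries of each group). NOP1, NOP13, UTP21 and UTP22 are lowest in PSD1 overexpression and highest in WT, RRP36 and UTP30 are highest in pdr3Δ, and RRP40 and RRP46 have their lowest mean in WT.

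Last, pdr3Δ was set against WT. In pdr3Δ, 15 of the 53 genes were lower than in WT, 2 were higher and 36 were not called, against 19.5% of all tested loci lower and 19.6% higher. The median log2 fold change was −0.07, against 0.01 for all loci. The pdr3Δ libraries lay below both WT libraries for 24 of the 53 genes, against 33.6% of all loci, and above both for 8, against 35.8%. In shares, 28.3% of the 53 genes were called lower and 3.77% higher. WT and pdr3Δ libraries are also in the 2 comparisons above.

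The lower genes were UTP4, UTP10 and UTP15 of UtpA, UTP13 and UTP21 of UtpB, UTP22, UTP20, RRP5, RRP12, the snoRNP genes NOP1, NOP56 and NOP58, and the large subunit genes NOP2, NOP7 and NOP13. The largest changes were those of UTP22 (−0.34 ± 0.05, adjusted p = 0.000367), NOP1 (−0.32 ± 0.05, adjusted p = 0.000647) and NOP58 (−0.30 ± 0.05, adjusted p = 0.000553). The 2 higher genes were RRP40 (0.24 ± 0.06, adjusted p = 0.0153) and UTP30 (0.21 ± 0.07, adjusted p = 0.038). RRP9 (−0.09), NOP14 (0.00) and NOP53 (0.00), an adaptor of the exosome on pre-60S particles, were not called.

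Of the 17 calls, those of NOP1, NOP58, RRP5, RRP12, UTP10, UTP13 and UTP22 held under every alternative tried. Without the first pdr3Δ library 7 genes were lower and the median was −0.01, with adjusted p-values of 0.105 for UTP4, 0.226 for UTP15, 0.0612 for UTP21, 0.0553 for UTP20, 0.0799 for NOP56, 0.0505 for NOP2, 0.115 for NOP7 and 0.0782 for NOP13. Without the second, the median was −0.14 and the adjusted p was 0.127 for RRP40, 0.229 for UTP30, 0.0678 for UTP15 and 0.0634 for UTP21. Without the first WT library it was 0.0795 for RRP40, 0.173 for UTP30 and 0.0955 for UTP15. Without the second WT library it was 0.0638 for UTP4, 0.0683 for UTP15, 0.0585 for UTP21 and 0.0913 for NOP7.

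Levels were compared between genes only per length, in the deposited FPKM. In WT the 53 genes had a median of 117 FPKM, with quartiles of 76.6 and 153, against a median of 72.1 FPKM over all tested loci in either WT library. The lowest were UTP20 at 22.5, RRP17 at 25 and NOP8, a large subunit factor, at 45.7 FPKM. The highest were NOP10 at 4799.1, NOP1 at 920, NOP58 at 763, NOP56 at 440 and NOP15 at 342 FPKM. NOP10 is only 177 bases long, and its CPM per kilobase was 616, below the 827 of NOP1, so its place in the order depends on how length was handled. The exosome subunits lay between RRP6 at 76.5 and RRP42 at 153 FPKM, close to the quartiles of the 53 genes. Level and log2 fold change showed little relation across the 53 genes, with Spearman's rho of 0.03, −0.01 and 0.02 in the 3 comparisons as listed above. Those points share libraries and are not replicates.

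Part of the sequence of 8 genes is shared with another annotated gene: RRP17, RRP14, NOP56, NOP13, NOP4, RRP9 and RRP15 with one on the opposite strand, and NOP58 with one on the same strand. Without these, 36 of 45 genes were lower in PSD1 overexpression against WT, 25 of 45 were higher in pdr3Δ against PSD1 overexpression, and 12 were lower and 2 higher in pdr3Δ against WT. None of the 53 genes is the direct neighbour of another of them.

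Other genes of the pathway were read from lists chosen by function. Among 32 other small subunit factors, 25 were lower in PSD1 overexpression than in WT and none was higher (median −0.27), and 21 were higher in pdr3Δ against PSD1 overexpression (median 0.20). PWP2, a UtpB subunit without a UTP symbol, fell by 0.44 ± 0.05 on the log2 scale in PSD1 overexpression against WT (adjusted p = 2.72e-05). BFR2, a processome component, was 0.29 ± 0.05 higher on that scale in pdr3Δ against PSD1 overexpression (adjusted p = 0.00493). All 4 other snoRNP proteins were lower in PSD1 overexpression, and GAR1, an H/ACA protein, stood at −0.65 ± 0.05 against WT and 0.35 ± 0.05 in pdr3Δ against PSD1 overexpression.

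Of 46 other large subunit factors, 44 were lower in PSD1 overexpression than in WT (median −0.34) and 33 were higher in pdr3Δ against PSD1 overexpression (median 0.21). The helicase gene DBP3 had the smallest p in both, at −0.64 (adjusted p = 1.54e-06) and 0.32 (adjusted p = 0.00174). The 7 other exosome subunits and cofactors included 4 lower in PSD1 overexpression, among them MTR4, the helicase that feeds the nuclear exosome (−0.40, adjusted p = 7.48e-05), and MTR3, a ring subunit (−0.31, adjusted p = 0.00293). In pdr3Δ against PSD1 overexpression 3 of the 7 were higher, with MTR3 at 0.27 ± 0.07 (adjusted p = 0.0211). Exosome genes with other names were thus among those called lower.

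RNA polymerase I and its initiation factors had 8 of 15 genes lower and 1 higher in PSD1 overexpression against WT (median −0.24), and 7 higher in pdr3Δ against PSD1 overexpression (median 0.21). RPA190, the largest subunit, stood at −0.58 (adjusted p = 4.83e-06) against WT, and RPA49 at 0.30 (adjusted p = 0.00312) in pdr3Δ against PSD1 overexpression. The cytosolic ribosomal protein genes had a larger difference from WT: 135 of 137 were lower and 1 higher in PSD1 overexpression, with a median of −0.76. In pdr3Δ against PSD1 overexpression 99 were higher and 1 lower, with a median of 0.22. RPS22B had 174 and 174 CPM in pdr3Δ, 142 and 134 in PSD1 overexpression, and 278 and 288 in WT. In pdr3Δ against WT, 136 of the 137 were still lower (median −0.54), beside 15 of the 53 genes described here. Many ribosomal protein genes are near-identical pairs, whose counts can be split between copies.

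**Figure D5:**
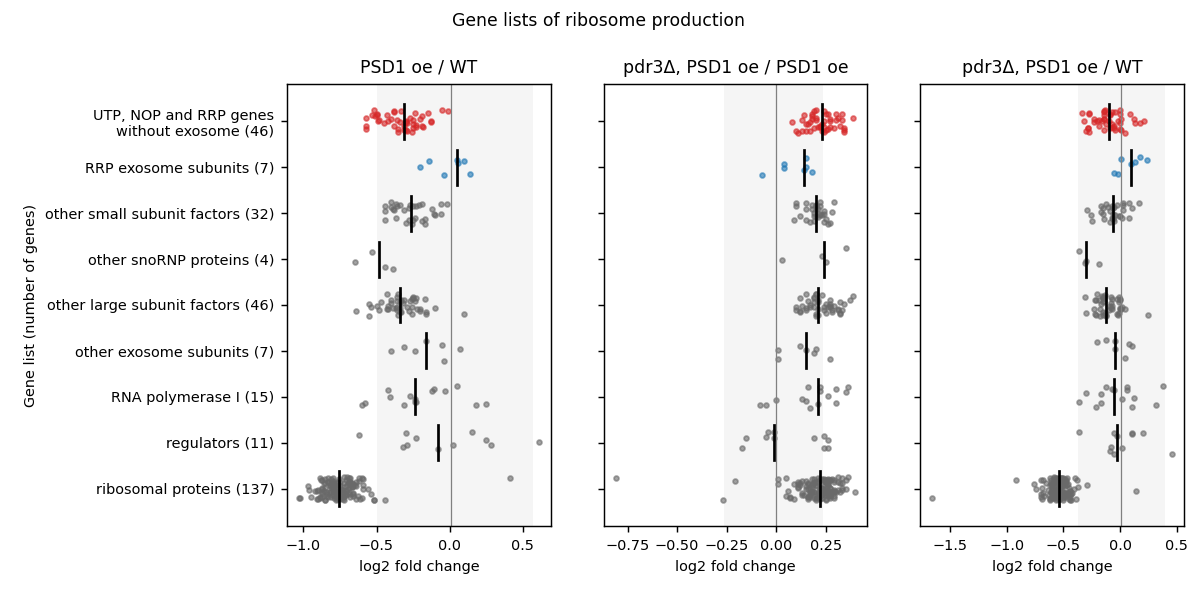
Log2 fold change of every gene among the 53 (46 without the exosome, in red, and the 7 exosome subunits, in blue) and in the pathway lists, for the 3 comparisons (points, genes; black bars, medians; grey band, the 10th to 90th percentile of all tested loci). The medians of the other small and large subunit factors lie close to that of the 46 genes in each comparison, and that of the ribosomal protein genes lies lowest in both comparisons with WT.

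Leaving out 1 library also ended several of these calls in pdr3Δ against PSD1 overexpression. Without the second PSD1 overexpression library the adjusted p was 0.0662 for BFR2, 0.0552 for GAR1, 0.055 for RPA49 and 0.0508 for RPS22B. For MTR3 it was 0.175 without that library, 0.0543 without the first and 0.129 without the second pdr3Δ library.

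The known regulators of these genes moved in both directions. DOT6 and TOD6 encode repressors that bind PAC, and STB3 encodes one that binds RRPE. TOD6 had 119 and 132 CPM in pdr3Δ, 105 and 105 in PSD1 overexpression, and 157 and 165 in WT. DOT6 had 184 and 181 CPM in pdr3Δ, 182 and 185 in PSD1 overexpression, and 195 and 167 in WT. TOD6 was lowest in PSD1 overexpression and highest in WT without overlap, at −0.62 ± 0.06 in PSD1 overexpression against WT (adjusted p = 1.36e-05), while the DOT6 groups overlapped, at 0.02. STB3 stood at 0.15 and was not called (adjusted p = 0.14), but without the first WT library it was higher (0.27, adjusted p = 0.00883).

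SFP1, an activator of ribosomal protein and assembly factor genes, was higher in PSD1 overexpression, with 101 and 98.1 CPM in pdr3Δ, 115 and 109 in PSD1 overexpression, and 95.1 and 89.2 in WT. Its log2 fold change against WT was 0.28 ± 0.06 (adjusted p = 0.00172), and SCH9, a growth kinase, was not called at −0.08. CRF1, a corepressor of ribosomal protein genes, rose by 0.61 ± 0.11 (adjusted p = 0.00108) in PSD1 overexpression, with 30.5 and 31.5 CPM there, against 18.1 and 22.5 CPM in WT. FHL1, which binds ribosomal protein promoters, was lower at −0.23 (adjusted p = 0.00801, and 0.0789 without the second PSD1 overexpression library). Its coactivator IFH1 was higher at 0.25 ± 0.09 (adjusted p = 0.0351), a call that ended without either PSD1 overexpression library or the second WT library (adjusted p 0.0857 to 0.181). On log2(FPKM + 1) and log2(FPKM + 0.1) limma gave 0.42 for IFH1 with an adjusted p of 0.139.

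The general promoter factors RAP1, ABF1 and REB1 were lower in PSD1 overexpression than in WT, at −0.32, −0.29 and −0.30, with adjusted p-values of 0.000237, 0.00217 and 0.000575. In pdr3Δ against PSD1 overexpression, TOD6 (0.26, adjusted p = 0.0163), RAP1 (0.24, adjusted p = 0.00679), ABF1 (0.24, adjusted p = 0.0214) and REB1 (0.26, adjusted p = 0.00619) were higher, and the other 7 regulators were not called. Without the second PSD1 overexpression library none of the 4 was called (adjusted p 0.0785 to 0.16). In pdr3Δ against WT only TOD6 (−0.36, adjusted p = 0.000852) and CRF1 (0.46, adjusted p = 0.00898) of the 11 regulators were called. Without the first WT library the adjusted p of CRF1 was 0.0508, and STB3 was called higher (0.24, adjusted p = 0.0261). Without the first pdr3Δ library IFH1 was called higher (0.35, adjusted p = 0.00241), against 0.20 with every library. RNA levels of regulators say nothing about their activity or location in the cell, which was not measured.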

How the data were processed

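The count table deposited by the authors holds whole-number counts per locus, not normalized, and their FPKM table gives those loci relative to length and library size, as the file headers and values show. The submitters' processing notes name the sacCer3 (R64) genome, Cuffdiff 2.2.0, Cufflinks 2.2.0, SAMtools 0.1.18, TopHat2 2.0.9 and Bowtie2 2.1.0. No source used here names the counting program or its strand setting. Locus coordinates equalled those of R64 for 99.68% of 6007 shared genes.

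Genes were joined to the table through the deposited transcript models and R64 symbols. The test on counts was edgeR's quasi-likelihood test (version 4.0.16, R 4.3.3) on all 6 libraries, with TMM scaling (factors 0.99 to 1.012), filterByExpr and 3 residual degrees of freedom. The biological coefficient of variation was 4.66%. Standard errors were derived from the fold change and its F statistic. The fit was tested on simulated data. Alternatives were DESeq2 1.42.0, limma 3.58.1 on log2(FPKM + 1) and log2(FPKM + 0.1), other scalings and filters, a replicate block, and leaving out each library.

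The genes, lists, roles, motifs and tests were chosen with earlier results of these data known. Values in each library are given for the genes with the largest and smallest change and the highest FPKM of each role group, the 3 largest changes in the other comparisons, and genes called against the majority. Beyond this rule, a few genes are named by their place among the rest after their values were seen. From each pathway list the gene with the smallest p is named, and every regulator. The symbol DBP4 was not matched, so 32 of 33 genes of that list were used.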

Additional observations from a re-analysis of the deposited data

How the results depend on the processing

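No result changed sign with its call under any alternative, and no count in PSD1 overexpression against WT moved by over 1.5 times: 34 to 43 genes were lower over all alternatives. In pdr3Δ against PSD1 overexpression, where 31 genes and 1291 loci were called, limma on log2(FPKM + 1) and on log2(FPKM + 0.1) called 18 genes each, with 825 and 829 loci, and DESeq2 called 808 loci. Leaving out 1 library gave 3 to 32 genes, all higher, and 233 to 796 loci. In pdr3Δ against WT, leaving out 1 library gave 10 to 17 genes called, 7 to 17 lower and 0 to 4 higher. Of the 2 higher genes, DESeq2 called 0, limma 1 at either pseudocount, and the fit of only the groups compared 1. The cause was not tested. Every gene called kept its direction, and of the 41, 31 and 17 calls, 31, 3 and 7 held under every alternative.

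With the replicate number as a block, 43 genes were lower in PSD1 overexpression against WT, 33 were higher in pdr3Δ against PSD1 overexpression, and 20 were called in pdr3Δ against WT. In the sample titles the first libraries of the 3 groups carry consecutive labels, as do the second libraries. The labels tie no replicate number to a shared culture or day. Deviations from the group means of same-numbered libraries correlated across genes at 0.215 between pdr3Δ and WT, but at −0.0219 between pdr3Δ and PSD1 overexpression and 0.0346 between PSD1 overexpression and WT, so the numbers were not taken as pairs. With 2 libraries a group, the precision of each value rests on a spread shared over groups and loci.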
